A study of Homo sapiens with 2 samples.

Results

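Mitochondrial carriers move metabolites, nucleotides, cofactors and ions across the inner mitochondrial membrane, and most of them belong to the SLC25 family. The genes described here were chosen by symbol, as every gene of the platform annotation named SLC25A with a number, UCP with a number or MPC with a number. The rule found 49 genes, each with 1 probe set, of 17687 named genes in all. The arrays measured RNA of MKN1, a gastric cancer line of human origin, in 2 puromycin-selected derivatives made with the pBABE plasmid. One line overexpressed wild-type RHOA, a small GTPase that controls actin contractility, and the other overexpressed RHOA with the Y42C substitution. There was 1 array per line, no parental or empty-vector cells were measured, and no time or dose was varied. Replicate error is therefore unknown, nothing was tested, and each difference compares a pair of lines rather than alleles in general.

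SLC25 proteins are built from repeats of a transmembrane module that open alternately to either side of the inner membrane. They exchange ADP for ATP, bring in phosphate, amino acids and cofactors, and export citrate and other intermediates for synthesis in the cytosol. The mitochondrial pyruvate carrier, made of MPC1 and MPC2, has another fold but does the same kind of work for the end product of glycolysis. Uncoupling proteins, named UCP, are SLC25 relatives, of which UCP1 lets protons back into the matrix and releases heat in brown fat.

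The values are deposited array signals, taken to be log2 from their range, since no source used here names the log base. Differences are Y42C minus wild-type on that log2 scale, and each fold assumes it. No detection call came with the values, so the level was read against 349 olfactory receptor genes, taken to be silent outside sensory tissue. A gene counted as above the minimum when 1 array or both reached the 95th percentile of those genes, 5.17 on the wild-type array and 5.14 on the Y42C array. This minimum kept 40 of the 49 carrier genes, 39 of them on both arrays and UCP3 on the Y42C array only, and 11802 genes in all. It keeps a gene on either array, so counts over the 40 describe genes with signal and not the whole family.

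The medians of the arrays over all probe sets were 6.42 and 6.36. RHOA itself had a signal of 16.47 with wild-type and 16.30 with Y42C, and since both lines carry a RHOA plasmid this does not check the labels. Of 8 epithelial markers, 7 were above the minimum, with KRT8 at 17.96 and 17.94, and CDH1, which encodes E-cadherin, was below it in both lines. Of 10 gastric markers only CLDN18, ANXA10 and VSIG1 were above it, and the gastric mucin MUC5AC (3.20 and 3.25) and the trefoil factor TFF1 (4.45 and 4.07) were not. All 3 squamous markers named here were above it. Several markers differed past 2-fold between the lines beside the carriers: the squamous marker SFN by 1.77, the gastric markers ANXA10 by 1.77 (at least 1.30-fold, its wild-type value being below the minimum) and VSIG1 by -1.78, the epithelial marker CLDN7 by -1.30 and the leukocyte marker CD14 by -1.78. Some markers of cell types a pure line should lack also passed the minimum, 4 of 6 for leukocytes, 3 of 5 for endothelium and 1 of 4 for fibroblasts, none of them above 7.45, so the minimum does not separate every expressed gene from background, and the part of cell identity or other cells in the carriers' differences was not tested.

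Of the 40 carrier genes above the minimum, 8 were at least 2-fold lower in the Y42C line and 2 at least 2-fold higher, 10 in all. Among all 11802 genes above the minimum, 9.8% were at least 2-fold lower and 7.46% at least 2-fold higher, together 17.3%. The 8 lower genes were SLC25A36, MPC1, SLC25A10, SLC25A43, SLC25A14, SLC25A12, SLC25A24 and SLC25A29, and the 2 higher genes were SLC25A44 and SLC25A23. In smaller steps the carriers leaned little to one side, with 23 lower, 16 higher and 1 equal in both lines, or 22 lower and 18 higher once a trend on level was removed. The 23 lower genes make 57.5%, beside 54.2% of all genes above the minimum. The median difference of the 40 was -0.23, and that of all genes above the minimum was -0.07. SLC25A24 (-0.99), SLC25A29 (-0.98) and SLC25A12 (-0.96) each slipped just inside 2-fold when the arrays were centred or a trend on level was removed, so 5 of the 8 remained at least 2-fold lower under centring, quantile normalization and trend removal alike.

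**Figure D1:**
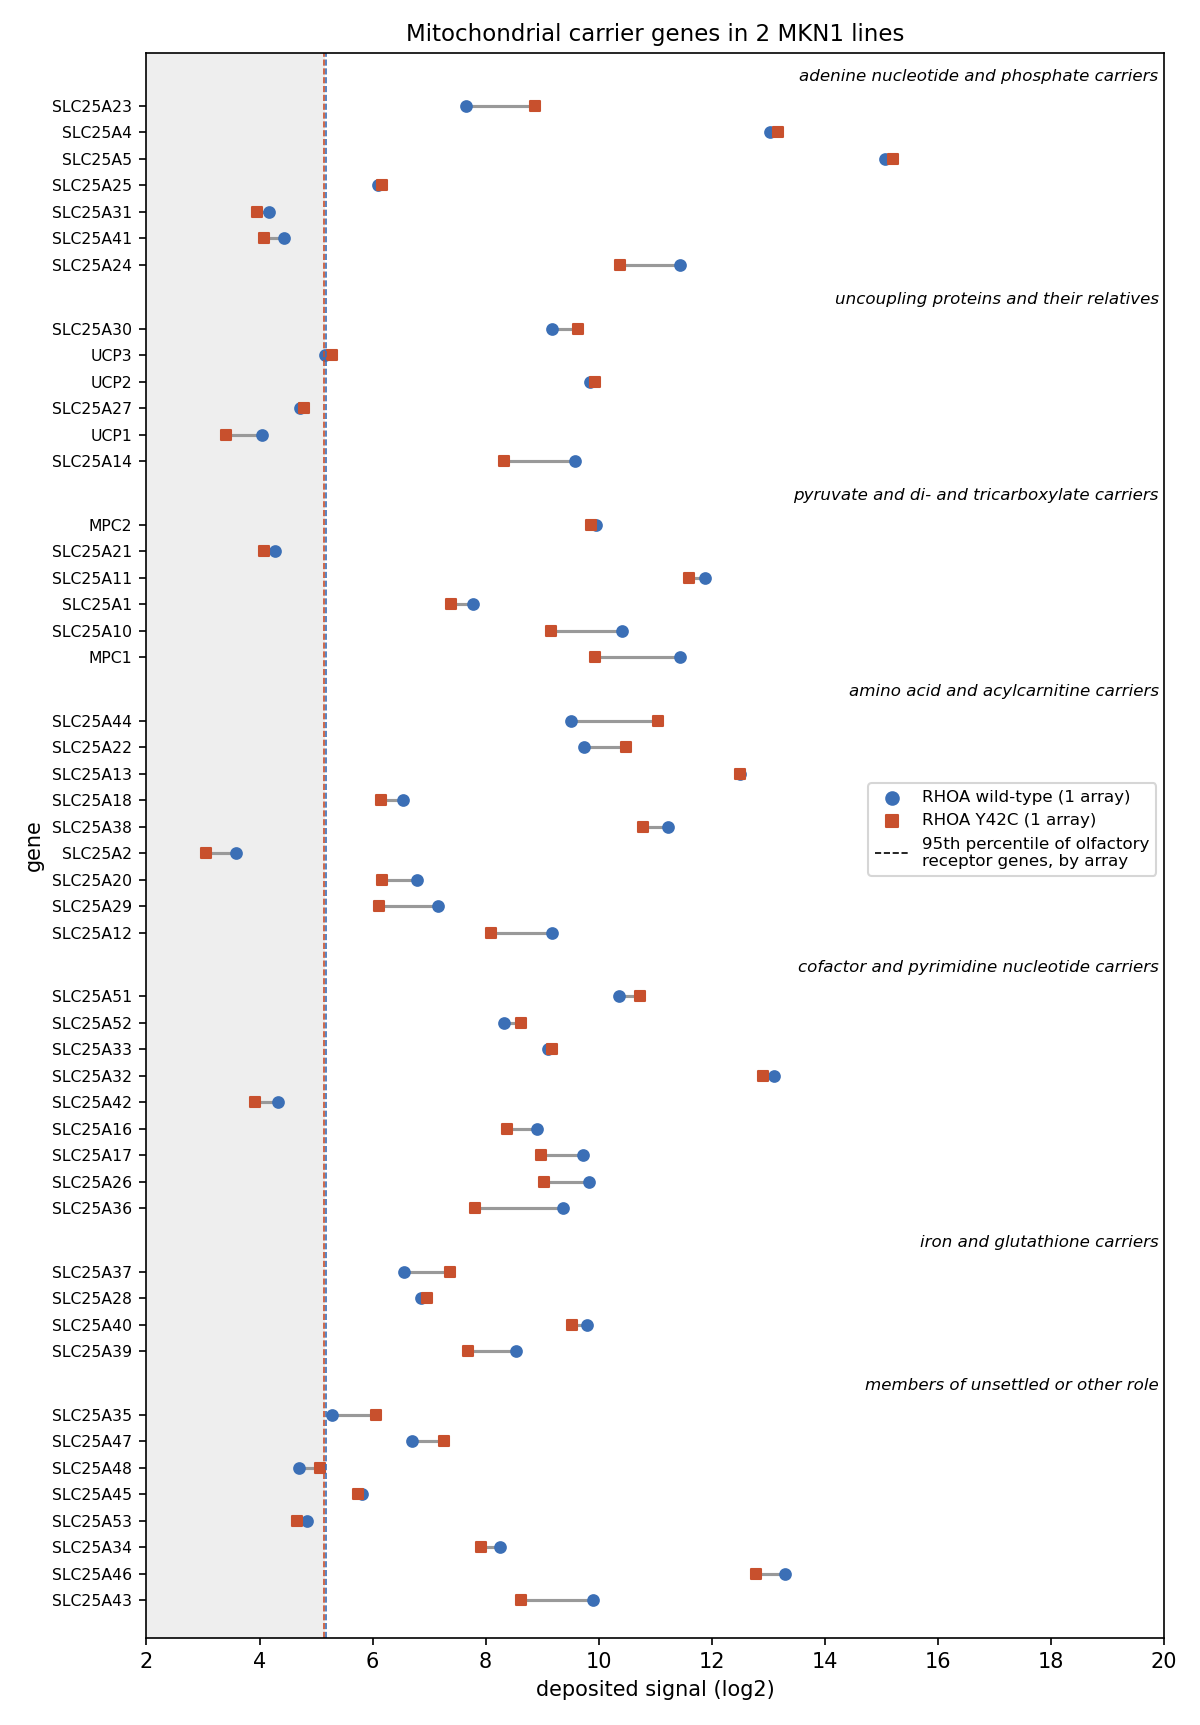
Deposited log2 signal of all 49 carrier genes in the RHOA wild-type line (circles) and the RHOA Y42C line (squares), 1 array each, grouped by role. Dashed lines mark the 95th percentile of olfactory receptor genes on each array (5.17 and 5.14), and 9 genes lie below it in both lines, in the grey area.

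A few upstream sequences are shown first, for the carriers at the ends of the range and for the closest functional partner of the lowest one. The pyrimidine nucleotide carriers SLC25A36 and SLC25A33 had differences of -1.56 and 0.07, and the windows of both hold the 4 motifs marked below. Whether the motifs bear on the differences was not tested. MPC1 had the next most negative difference and SLC25A44 the most positive one. The windows are the 150 bases before the RefSeq start of each gene in GRCh38.p14, at chr3:140941686-140941835 on the plus strand, chr1:9539315-9539464 on the plus strand, chr6:166382941-166383090 on the minus strand and chr1:156193954-156194103 on the plus strand. All 4 lie upstream of the annotated gene, and no gene of the RefSeq table lies over them. They are written 5′ to 3′ along the gene, and capitals mark the cAMP response element TGACGTCA, the E-box CACGTG, the CCAAT box CCAAT and the GC box GGGCGG, read on both strands.
SLC25A36: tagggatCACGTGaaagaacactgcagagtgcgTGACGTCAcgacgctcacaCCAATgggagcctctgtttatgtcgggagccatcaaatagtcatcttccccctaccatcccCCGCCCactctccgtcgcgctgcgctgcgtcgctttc
SLC25A33: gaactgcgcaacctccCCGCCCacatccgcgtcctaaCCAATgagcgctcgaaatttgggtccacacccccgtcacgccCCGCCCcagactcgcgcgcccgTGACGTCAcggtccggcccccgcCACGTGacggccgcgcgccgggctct
MPC1: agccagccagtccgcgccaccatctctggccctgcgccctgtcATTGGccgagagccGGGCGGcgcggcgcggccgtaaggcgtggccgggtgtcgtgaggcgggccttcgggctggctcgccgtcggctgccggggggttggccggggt
SLC25A44: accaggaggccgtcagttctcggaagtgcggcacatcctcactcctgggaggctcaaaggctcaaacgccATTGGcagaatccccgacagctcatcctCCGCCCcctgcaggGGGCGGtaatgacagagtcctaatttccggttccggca

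SLC25A36 and SLC25A33 each held 1 cAMP response element, 1 E-box and 1 CCAAT box in these windows, in different order and spacing. The SLC25A36 window held 1 GC box and the SLC25A33 window 2. The cAMP response element began 117 bases before the start of SLC25A36 and 49 bases before that of SLC25A33, and the E-box 143 and 26 bases before. RefSeq promoter windows of 300 bases, 250 before to 50 after the start, were matched for 42 of the 49 carriers and for 14250 named genes. A cAMP response element stood in 3 carrier windows, those of SLC25A25, SLC25A33 and SLC25A36, and in 2.62% of all windows. An E-box stood in 7 carrier windows (16.7%) and in 8.69% of all. Among genes above the minimum, an E-box was in 17.1% of carrier windows and 10.2% of all. The cAMP response element was there in 8.57% and 3.21%. An E-box and a cAMP response element together stood in the windows of SLC25A33 and SLC25A36 and in 45 windows in all (0.316%). No other pair of motifs was counted, and this pair is one that the printed windows of SLC25A33 and SLC25A36 hold. The share is therefore a description and not a test. A CCAAT box was found in 21 carrier windows, including those of MPC1, SLC25A23 and SLC25A44, beside 36.4% of all. Among genes above the minimum the CCAAT box was in 48.6% of carrier windows and 36.7% of all. The GC box was found in 28 carrier windows, beside 59.5% of all. Among genes above the minimum it was in 71.4% of carrier windows and 69.1% of all. The core GCATGCG of the NRF1 motif, named for a regulator of many nuclear-encoded mitochondrial genes, was in 1 carrier window, that of SLC25A24, and in 5.16% of all. Among genes above the minimum that core was in 2.86% of carrier windows and 6.27% of all. These matches describe letters in a window, and binding was not measured.

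The promoters of the 8 lower carriers had a median G and C content of 74.5%, with a range from 58.7% to 81.3%. The median was 67.0% over the 35 carriers above the minimum with a promoter window and 65.0% over all genes above the minimum. SLC25A10 (81.3%) and SLC25A29 (80.0%) were the highest of the 8. SLC25A14 (58.7%) and SLC25A36 (64.7%), the carrier with the most negative difference, lay under the median of all genes above the minimum. The 2 higher carriers had 65.7% (SLC25A23) and 58.3% (SLC25A44). Of 15 carriers with at least 70% G and C, 5 were at least 2-fold lower and 0 at least 2-fold higher, beside 8.60% and 8.99% of the 3103 genes above the minimum with such promoters. Of the 20 carriers under 70%, 3 were at least 2-fold lower and 2 higher, beside 10.8% and 6.20% of such genes. The median differences of the 2 classes of carriers were -0.28 and -0.30. The 70% boundary was set after the carriers' values were seen.

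Carriers of pyruvate and of di- and tricarboxylates link glycolysis, the citric acid cycle and fatty acid synthesis. All 5 above the minimum were lower in the Y42C line, 2 of them at least 2-fold. However, MPC2 turned slightly positive once a trend on level was removed. Over all genes above the minimum, 54.2% were lower and 9.8% at least 2-fold lower. MPC1, a subunit the pyruvate carrier cannot work without, had a signal of 11.44 with wild-type RHOA and 9.94 with Y42C, 2.83-fold lower. Of genes in the same one of 20 bins of level, 2.37% were as far or farther in that direction. Such a share is no test, and over the 10 carriers past 2-fold it ran from 2.37% to 10.8% (SLC25A24). Its partner MPC2 was nearly level at 9.95 and 9.86. SLC25A10, which exchanges malate or succinate for phosphate, was at 10.41 and 9.15, 2.39-fold lower. The oxoglutarate-malate carrier SLC25A11, an arm of the malate-aspartate shuttle, was at 11.87 and 11.60. SLC25A1, which exports citrate as the carbon source of fatty acid synthesis, was at 7.78 and 7.39, a difference of -0.39. The oxoadipate carrier SLC25A21 lay below the minimum in both lines. The median of the 5 genes was -0.39.

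Adenine nucleotide and phosphate carriers were represented by 7 genes, and SLC25A3 and SLC25A6 were not analysed here. The ADP-ATP exchangers were nearly level between the lines. SLC25A5, the form of dividing cells, was at 15.06 and 15.20. SLC25A4, the form of heart and skeletal muscle, was at 13.02 and 13.17, so both differed by less than 0.2. SLC25A31, the testis form, was below the minimum in both lines. The calcium-regulated carriers, which exchange ATP-magnesium for phosphate and so set the adenine nucleotide pool of the matrix, went different ways. SLC25A24 had 11.43 with wild-type RHOA and 10.38 with Y42C, 2.07-fold lower. SLC25A23 was at 7.66 and 8.88, 2.33-fold higher, and 4.41% of genes of like level were as far in that direction. SLC25A25 was at 6.10 and 6.17, and SLC25A41, which lacks the calcium-binding part, was below the minimum. The differences of SLC25A23 and SLC25A24 lay 2.27 apart on the log2 scale, more than in the other 12 pairs of related or partner carriers set side by side, which were chosen with the values known.

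Of the 6 uncoupling proteins and relatives, 4 were above the minimum. UCP2, the widely expressed member, was at 9.84 and 9.94. UCP3, the muscle form, was at the edge of the background with 5.15 and 5.29, and UCP1 was below it in both lines, as was the neuronal relative SLC25A27. SLC25A14 was 2.38-fold lower in the Y42C line, at 9.58 and 8.33. Its relative SLC25A30 lay on the other side, at 9.17 and 9.64.

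**Figure D2:**
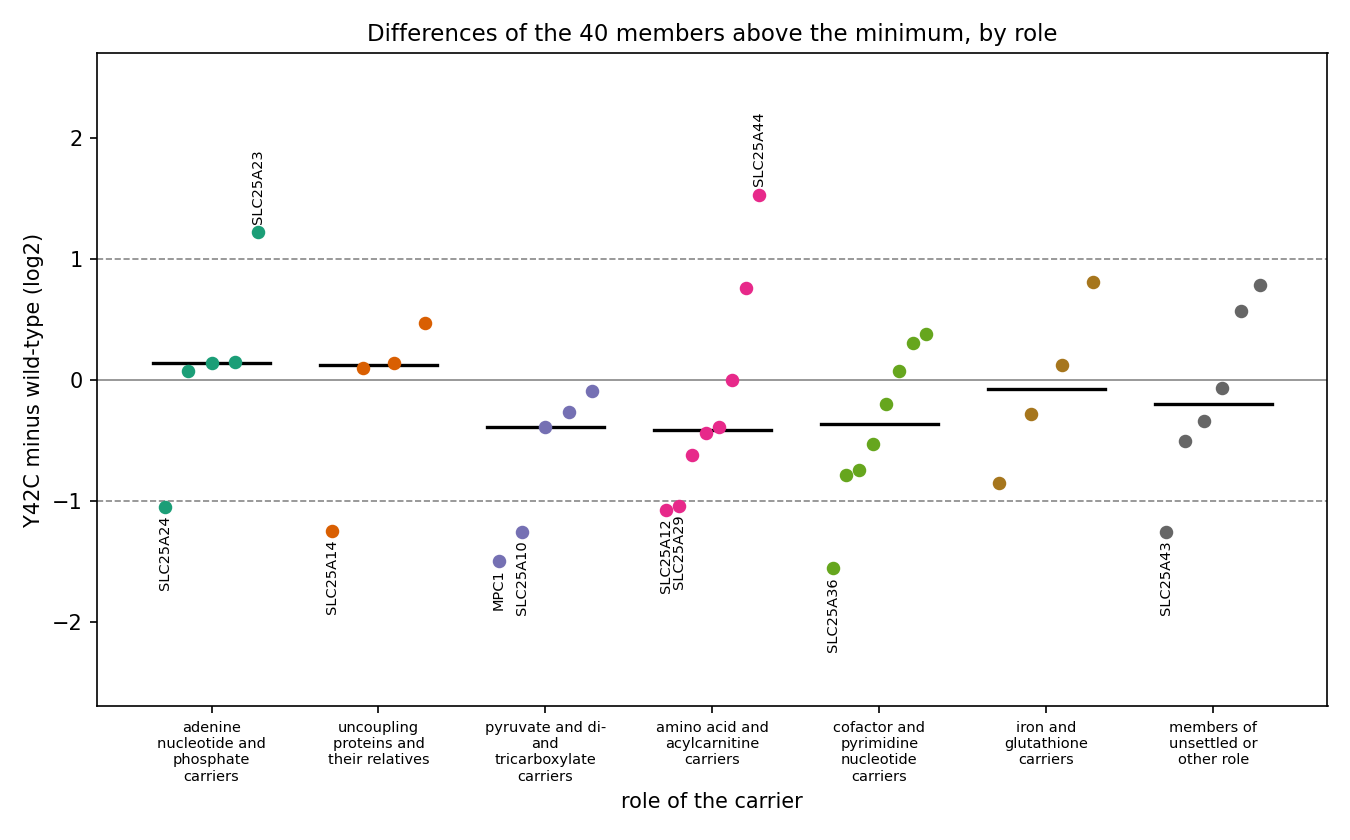
Difference in log2 signal, Y42C minus wild-type, of the 40 carrier genes above the minimum, by role, with 1 point per gene, a bar at the median of each role and dashed lines at 2-fold. The pyruvate and carboxylate carriers all lie below 0, although MPC2 turned positive with a trend on level removed, and the other roles hold genes on both sides.

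Amino acid and acylcarnitine carriers held 8 genes above the minimum, 5 lower, 2 higher and 1 equal. Of the 8, 2 were at least 2-fold lower and 1 at least 2-fold higher. The shares over all genes above the minimum were 54.2% lower, 9.8% at least 2-fold lower and 7.46% at least 2-fold higher. SLC25A44, which brings branched-chain amino acids into mitochondria, had a signal of 9.51 with wild-type RHOA and 11.04 with Y42C. At 2.89-fold it was the carrier with the most positive difference, and 3.56% of genes of like level were as far in that direction. The glutamate carrier SLC25A22 was also higher, at 9.73 and 10.49, by less than 2-fold, and the other glutamate carrier SLC25A18 was at 6.53 and 6.14. The aspartate-glutamate carriers, which drive the malate-aspartate shuttle, were split. SLC25A12 was at 9.18 and 8.10, 2.11-fold lower, and SLC25A13 was at 12.50 in both lines. The basic amino acid carrier SLC25A29 was 2.06-fold lower, at 7.15 and 6.11. Both values lie under the 7.45 that the leukocyte marker CD14 reached in the wild-type line. With 16 added to each linear value the SLC25A29 difference was -0.89, inside 2-fold. The carnitine-acylcarnitine carrier SLC25A20, which admits long-chain fatty acids for oxidation, was at 6.79 and 6.17. SLC25A38, which supplies glycine for haem synthesis, was at 11.23 and 10.79. The ornithine carrier SLC25A2 was below the minimum, and SLC25A15 was not analysed here.

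Carriers of cofactors and pyrimidine nucleotides had 5 lower and 3 higher genes above the minimum, beside 54.2% lower and 45.2% higher over all such genes. SLC25A36, which moves pyrimidine nucleotides for mitochondrial DNA and RNA synthesis, had the most negative difference of all carriers. Its signal was 9.37 with wild-type RHOA and 7.81 with Y42C, 2.95-fold lower, and 2.88% of genes of like level were as far in that direction. SLC25A33, with the same substrates, was at 9.10 and 9.17. SLC25A26, which imports the methyl donor S-adenosylmethionine, was at 9.82 and 9.03, and SLC25A17, a carrier of the peroxisome rather than the mitochondrion, was at 9.72 and 8.97. SLC25A16, tied to coenzyme A, was at 8.91 and 8.38. These 3 were lower by less than 2-fold. The folate and FAD carrier SLC25A32 was at 13.10 and 12.90. The NAD carrier SLC25A51 was at 10.35 and 10.73, and its close copy SLC25A52, which may share probes with it, at 8.32 and 8.62. The coenzyme A carrier SLC25A42 was below the minimum.

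Iron and glutathione carriers were all above the minimum, and none passed 2-fold, beside 17.3% of all genes above the minimum. SLC25A37 (mitoferrin of red cell precursors) was at 6.56 and 7.37, and SLC25A28, the mitoferrin of other tissues, at 6.85 and 6.97. The glutathione importer SLC25A39 was at 8.53 and 7.68, 1.80-fold lower, and its relative SLC25A40 at 9.80 and 9.52. The differences were 0.81 and 0.12 for the iron carriers SLC25A37 and SLC25A28. They were -0.85 and -0.28 for SLC25A39 and SLC25A40. Over all genes above the minimum, 54.2% were lower and 45.2% higher, so 2 genes of each kind show no split by function.

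Among members of unsettled or other role, SLC25A43 was at 9.89 and 8.63, 2.39-fold lower. SLC25A46, which sits in the outer membrane and takes part in mitochondrial fission and fusion, was at 13.29 and 12.78. SLC25A35 was near the background in the wild-type line (5.28) and at 6.06 in the Y42C line, and its relative SLC25A34 was at 8.25 and 7.91. SLC25A47 was at 6.70 and 7.27, and SLC25A45 at 5.81 and 5.74. SLC25A48 and SLC25A53 were below the minimum. With SLC25A2, SLC25A21, SLC25A27, SLC25A31, SLC25A41, SLC25A42 and UCP1 they make up the 9 genes below it in both lines, with values from 3.06 to 5.07.

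The lower carriers were not limited to dim probe sets. The carriers were split by the mean of both arrays, 20 of them at least 4 log2 units above the minimum and 20 closer to it. In the brighter 20, MPC1, SLC25A10, SLC25A43 and SLC25A24 were at least 2-fold lower, the last just inside 2-fold after centring, and SLC25A44 was at least 2-fold higher. Of all 5446 genes that bright, 9.24% were at least 2-fold lower and 7.62% at least 2-fold higher. In the dimmer 20, SLC25A36, SLC25A14, SLC25A12 and SLC25A29 were the 4 lower genes and SLC25A23 the 1 higher gene, beside 10.3% and 7.33% of the other 6356 genes.

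**Figure D3:**
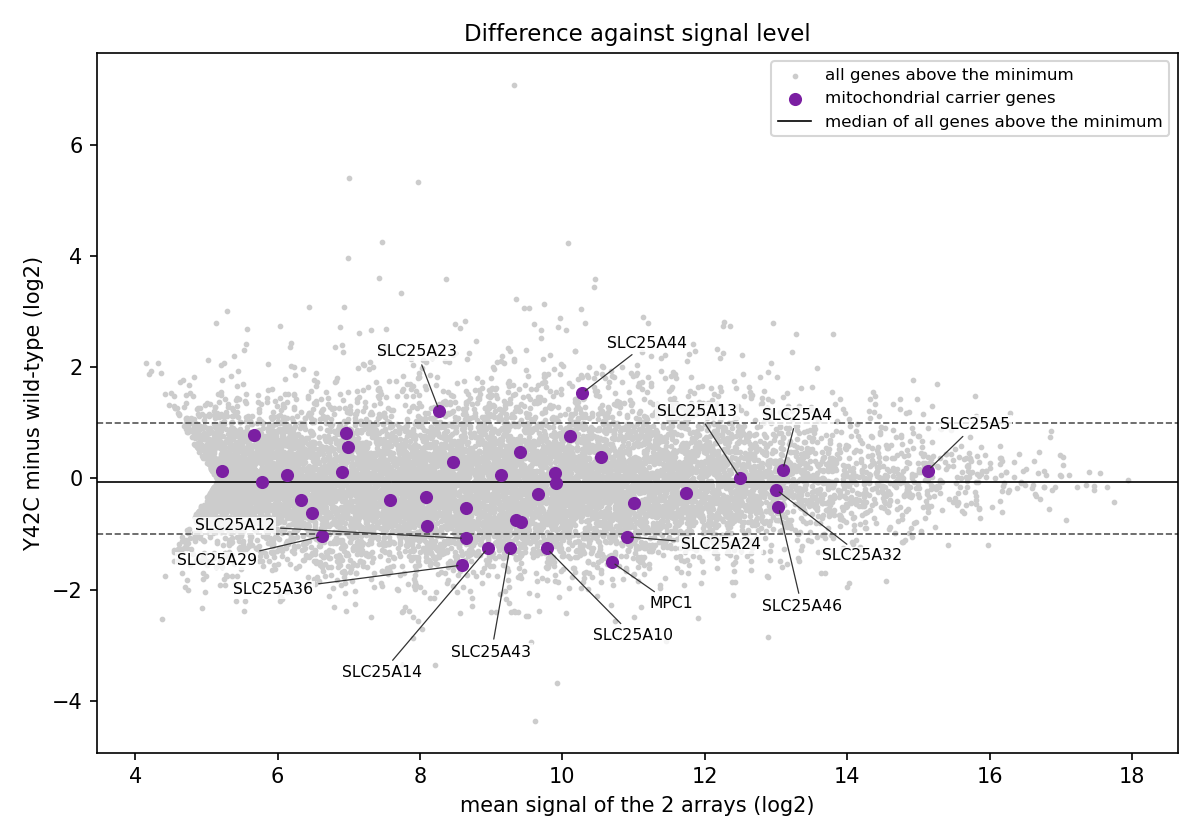
Difference in log2 signal, Y42C minus wild-type, against the mean log2 signal of both arrays, for the 11802 genes above the minimum (grey) and the 40 carrier genes among them (purple). Dashed lines mark 2-fold and the solid line the median of all genes (-0.07), and the notch at the left edge comes from the minimum itself.

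Some carriers are neighbours in the genome. SLC25A5 (0.14) and SLC25A43 (-1.26) are adjacent among the measured genes on chromosome X, SLC25A29 (-1.04) and SLC25A47 (0.57) on chromosome 14, and UCP2 (0.10) and UCP3 (0.14) on chromosome 11. The first 2 of these pairs had differences of opposite sign, and those of UCP2 and UCP3 had the same sign. Around the 10 carriers past 2-fold, 10 neighbouring entries were above the minimum. Of these, 0 passed 2-fold in either direction, beside 17.3% of all genes above the minimum. So few entries cannot be told apart from that share. For MPC1 the neighbours were SFT2D1 (-0.53) and RPS6KA2 (-0.57), and for SLC25A10 the ribosomal protein gene MRPL12 (0.08).

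Carriers reach the inner membrane through TOMM receptors, small TIMM chaperones of the intermembrane space and the TIMM22 translocase. Of 13 genes of this import route, 9 were lower and 4 higher (7 and 6 with the arrays centred, when TOMM20 and TIMM8B turned). The median was -0.32, and 2 were at least 2-fold lower and 1 at least 2-fold higher. Over all genes above the minimum, 54.2% were lower, 9.8% at least 2-fold lower and 7.46% at least 2-fold higher. TIMM8A was at 9.66 and 8.20 (2.75-fold lower) and the receptor subunit TOMM22 at 13.29 and 11.90 (2.62-fold lower). The chaperone TIMM9 was 2.14-fold higher, at 9.77 and 10.87, and TIMM22 itself was at 11.74 and 11.10. The 2 carrier-like genes outside the rule, MTCH1 and MTCH2, differed by -0.09 and -0.50.

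The enzymes that act next to the pyruvate and carboxylate carriers were counted in the same way, in a list chosen with earlier results known. Of 24 genes of pyruvate dehydrogenase and the citric acid cycle above the minimum, 18 were lower (17 with the arrays centred), 4 at least 2-fold, and 0 at least 2-fold higher, with a median of -0.53, beside 54.2% lower, 9.8% at least 2-fold lower and a median of -0.07 over all genes above the minimum. PDHA1, the catalytic subunit that takes the pyruvate admitted by the MPC1 carrier, was at 13.16 and 10.64, 5.74-fold lower. The kinase PDK1, which switches that enzyme off, was at 10.27 and 7.86, and SUCLG1 and SDHD, of the later cycle, differed by -1.62 and -1.54, while SDHA lay at 0.64. Of 10 enzymes of the malate-aspartate, citrate and glycerol phosphate shuttles, GOT2, the mitochondrial aspartate aminotransferase beside SLC25A12, was the 1 gene past 2-fold (14.05 and 12.92). ACLY, which cleaves the citrate exported by SLC25A1, lay at the other end with 0.88, and the shuttle median was -0.14.

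In the lists for other carriers' partners, 1 gene per list was at least 2-fold lower, and 1 gene, POLRMT, was at least 2-fold higher. Among all genes above the minimum, 9.8% were at least 2-fold lower and 7.46% at least 2-fold higher, together 17.3%. CPT1A, which makes the acylcarnitine that SLC25A20 carries, was at 8.28 and 6.82 (2.75-fold lower), and the carnitine transporter SLC22A5 lay at 0.71. Among 8 enzymes of glutamine, ornithine and proline use, PRODH differed by -1.20 and ALDH18A1 by 0.22. Among 9 iron-sulfur and haem enzymes, NFS1, the cysteine desulfurase, differed by -1.27 and FDX1 by 0.64. VDAC3, a pore of the outer membrane, was 2.36-fold lower, and VDAC1 and VDAC2 differed by -0.52 and -0.47. Of 10 regulators of mitochondrial gene expression, TFAM, which packs mitochondrial DNA, differed by -1.01, which fell inside 2-fold under centring, and POLRMT, the mitochondrial RNA polymerase, by 1.24.

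**Figure D4:**
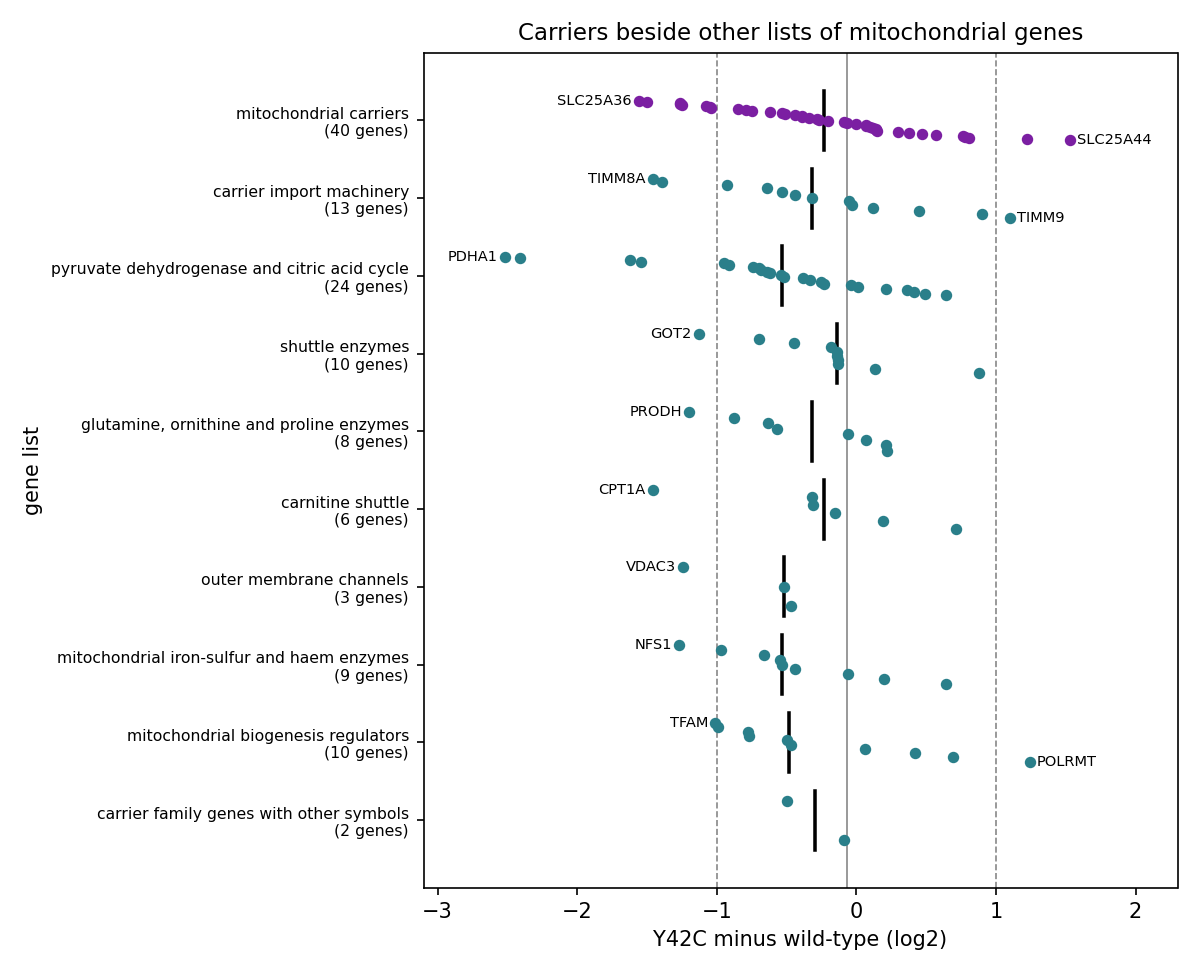
Difference in log2 signal, Y42C minus wild-type, of the 40 carrier genes (purple) beside other lists of mitochondrial genes above the minimum (teal), 1 point per gene, with a bar at each list's median. The solid line is the median of all genes above the minimum (-0.07) and dashed lines mark 2-fold; the carrier median is -0.23 and that of the pyruvate dehydrogenase and citric acid cycle list -0.53.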

How the data were processed

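Total RNA of 2 MKN1 lines was labelled as biotinylated cRNA and hybridised to Affymetrix arrays, per the labels' protocols. The authors deposited 1 value per probe set and array, 21448 in all, here taken as log2 signal; per the submitters' processing notes they used Affymetrix Expression Console. The version, background correction, summary method and between-array normalization: not given in the sources used here. Deposited values were used unchanged. Arrays have no read depth, and 1 array per line limits the precision.

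The platform annotation gave 1 symbol for 17709 probe sets, and probe sets of a gene were averaged. Differences, counts past 2-fold and medians were computed with no test. The members and lists were chosen with earlier results of these data known. Every carrier is named, with both values where it was above the minimum; of other lists, genes past 2-fold and, for the mitochondrial lists, the extremes. Promoter sequences are from RefSeq (GRCh38.p14); the files name no build. In a simulation, 150 of 150 genes changed 4-fold or 8-fold passed 2-fold, and 1 of 50 genes changed 1.5-fold did. Its noise was assumed, and smaller than the spread of the measured differences (standard deviation 0.77). It checks the counting only, since replicate error is unknown. Alternatives were centring, quantile normalization, a lowess trend (span 0.3), other minimums and thresholds, a constant of 16, and the brightest probe set. The analysis ran in Python 3.11.15 with NumPy 2.4.6, pandas 2.3.3, matplotlib 3.10.9 and statsmodels 0.14.6.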

Additional observations from a re-analysis of the deposited data

How the results depend on the processing

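Of the 8 carriers at least 2-fold lower in the Y42C line, 5 remained with a lowess trend on level removed, 6 with the arrays centred on their medians, and 7 with quantile normalization or with 16 added to each linear value. The other minimums left the count at 8. The higher count was 2 under all of these. The brightest probe set could change no carrier, since each has 1, and setting values below the minimum to it could change only UCP3 among the 40. At 1.5-fold 12 carriers were lower and 5 higher, and at 3-fold 0 carriers passed in either direction. The shares of all genes were not counted at those thresholds or under the alternatives. These counts therefore describe the carriers only and cannot be set against the background. The median difference kept its sign and moved by less than 0.1 under every alternative. The differences of the 40 carriers each moved by less than 0.2 under the alternatives of scale, trend and damping; MPC2 changed sign with the trend removed. No paired analysis was possible because each group has 1 array. The number of arrays limits what can be seen, and replicate spread is unknown.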
